A study of Homo sapiens with 40 samples.

Results

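The genes described here are 37 genes of DNA replication and S phase, taken as a named list of replication licensing, fork and nucleotide supply genes and followed across every group of an RNA sequencing study of 786-0 cells. All 37 symbols matched 1 gene identifier each among the 60664 genes of the count table, and all 37 are among the 22527 genes that passed the filter on low counts. The cells, grown from a clear cell renal carcinoma, came as a knockout (KO) of the histone methyltransferase gene SETD2, per the labels, and as a SETD2 wild type (WT). In each line, cells were given 100 nM DAC (decitabine, which blocks DNA methyltransferases) together with 10 nM BMN673 (talazoparib, an inhibitor of PARP enzymes), 100 nM DAC alone, or 10 nM BMN673 alone, for 5, 16 or 26 days. The controls of each line were sampled at day 0 without drug. That gives 20 groups of 2 libraries, 40 libraries in all. Only 1 KO and 1 WT line were sampled, so a difference between them belongs to that pair of lines. The labels do not tell if replicates came from separate cultures, so p-values measure only the spread between these libraries, which may be technical. Untreated cells were sampled at day 0 alone, so in each comparison with control the treatment and the time in culture cannot be told apart.

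Before a cell copies its DNA, the origin recognition complex, CDC6 and CDT1 load the MCM helicase onto origins in G1 phase, a step called licensing. At the start of S phase CDC45 and the GINS complex join the helicase and switch it on, and polymerases, the sliding clamp PCNA, its loader RFC and the enzymes that join Okazaki fragments then follow the moving fork. Ribonucleotide reductase, thymidylate synthase and thymidine kinase supply the nucleotides. Most of these genes are transcribed in late G1 and S phase under E2F transcription factors, which the RB protein holds back until cyclin-dependent kinases act on it, with cyclin E as a partner of the kinase CDK2. Their transcripts are therefore widely read as a sign of cycling cells. In bulk RNA, fewer cells in S phase and less of each RNA per cell cannot be told apart.

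Values are library-size scaled counts (CPM), given per library or as a mean ± SD of 2 libraries, and log2 fold changes are given with their SE. A gene passed when its adjusted p was below 0.05 in edgeR's quasi-likelihood test, with the Benjamini-Hochberg adjustment over all 22527 genes tested. Library totals ran from 17833960 to 22631101 counts. SETD2 stood at 127 ± 20.2 CPM in KO controls and 139 ± 13.6 CPM in WT controls, a log2 difference of -0.13 ± 0.07 that did not pass (adjusted p = 0.2), and a gene-level count cannot show whether a sequence was edited. Of the renal markers, PAX8 ran from 210 to 481 CPM and VIM from 2970 to 5420 CPM over the libraries, while CA9 stayed at or below 3.05 CPM and was at 0 in 15 libraries, and NDUFA4L2 at or below 3.01 CPM. The 10 blood and endothelial markers summed to at most 5.61 CPM, with HBB at 0 in all 40 libraries and CD3E at 0 in 35.

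The 2 WT control libraries stood apart from each other for several of these genes. CDT1 was at 57.0 and 91.4 CPM in them, TK1 at 182 and 259 CPM, E2F1 at 83.4 and 122 CPM, and E2F2 at 30.6 and 42.0 CPM, the first library being the lower one each time. CCNE2 went the other way, at 26 and 17.7 CPM. The summed level of all 37 genes was 3850 and 4170 CPM in those libraries, against 4310 and 4290 CPM in the KO controls. The KO controls differed from each other for POLA1 (91.1 and 72.4 CPM) and MCM10 (51.3 and 40.8 CPM). Each comparison was fitted again with each of its libraries left out in turn, and the counts of such fits in which a named gene did not pass are given below.

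The promoters of the genes were searched for 3 sequences. The list was not chosen by these sequences, but most such genes are known to be transcribed under E2F factors. A high share of E2F motifs is thus a description of the list and not an independent result. RefSeq promoter windows on GRCh38.p14, each running from 250 bases before to 50 bases after a transcription start, were at hand for 33 of the 37 genes. They were not at hand for MCM4, MCM5, GINS4 and CCNE2. An E2F motif, TTCGCGC or TTGGCGC on either strand, stood in the window of 16 of the 33 genes (48.5%), against 1776 of 35116 promoters of the same length (5.06%). The 16 genes were CDC6, E2F1, E2F2, GINS1, LIG1, MCM2, MCM3, MCM6, MCM7, ORC1, POLA1, POLA2, POLE, POLE2, RFC5 and RRM2. The CCAAT box, CCAAT on either strand, stood in 19 of 33 (57.6%), against 34.61% of all promoters. The CHR element, TTTGAA on either strand, stood in 1 of 33 (3.0%), against 15.16% of all promoters. A match on one strand can overlap a match on the other, and 6 of the genes have more than 1 promoter entry and counted as holding a motif if any entry held it. The promoters compared with were not matched to those of the list for base composition.

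The windows below surround the first E2F motif, from the upstream end, of 6 genes. These had the largest falls, among those with a motif, under the combination at day 5 in KO cells. That is the comparison with the largest median change of the list. They are shown on the strand of the gene, with each motif match in capitals. The stretches for MCM2, MCM3 and LIG1 are kept short because they lie inside the annotated gene.
E2F2, chr1:23531238-23531304, minus strand: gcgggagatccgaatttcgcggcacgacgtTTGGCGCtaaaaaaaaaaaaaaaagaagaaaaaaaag
MCM6, chr2:135876558-135876624, minus strand: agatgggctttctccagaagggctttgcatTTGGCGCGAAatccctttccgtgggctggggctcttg
POLA1, chrX:24693751-24693817, plus strand: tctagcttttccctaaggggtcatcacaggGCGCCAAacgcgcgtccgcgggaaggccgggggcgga
MCM2, chr3:127598404-127598433, plus strand: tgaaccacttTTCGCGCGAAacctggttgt
MCM3, chr6:52284728-52284756, minus strand: gttcggaagttTTCGCGCcggggtggagt
LIG1, chr19:48170310-48170338, minus strand: ctgcGCGCGAAtgccgtgGCGCGAActtg
In MCM6 and MCM2 the capitals are overlapping matches on opposite strands. In LIG1 they are separate matches on the strand opposite to the gene, and in POLA1 the match shown is on the opposite strand too. The E2F2 motif begins 41 bases and the first MCM6 motif 151 bases before the start. The MCM6 promoter holds 4 matches and the POLA1 promoter 2, and those outside the windows are not shown. A match describes the letters of a window and is not a measured binding site.

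The genes differed more in level than they moved. Per kilobase of exon, the median over the 20 group means was highest for PCNA, the sliding clamp, at 99.1 CPM per kilobase. The thymidine salvage enzyme TK1 (86.4), the thymidylate synthase TYMS (83.4) and the helicase subunit MCM7 (83.1) came next, and POLE2 (2.34) and POLA2 (2.07), accessory subunits of polymerases epsilon and alpha, were lowest on the same scale. Over the 20 groups, the highest group mean was 5.25 times the lowest for E2F2 (36.3 against 6.91 CPM), 3.26 times for MCM6 (183 against 56.1 CPM), 3.07 times for POLA1 (111 against 36.1 CPM) and 3.03 times for MCM10. At the other end it was 1.25 times for the origin recognition subunit ORC6 (43.0 against 34.4 CPM). The group mean ran from 36.9 to 85.5 CPM for CDT1, 93.7 to 200 CPM for MCM2, 71.9 to 188 CPM for MCM5, 57.4 to 123 CPM for CDC6, 103 to 163 CPM for PCNA and 138 to 248 CPM for TYMS. It ran from 286 to 628 CPM for RRM2, 67.7 to 121 CPM for E2F1, 8.34 to 12.6 CPM for CCNE1 and 19.1 to 36.3 CPM for CCNE2. The lowest group mean of 24 of the 37 genes was that of KO cells given the combination for 5 days. The highest was most often that of KO cells given BMN673 for 26 days or of the KO control, with 9 genes each. Lowest and highest groups were not tallied over all genes tested, so these counts have no background beside them.

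**Figure D1:**
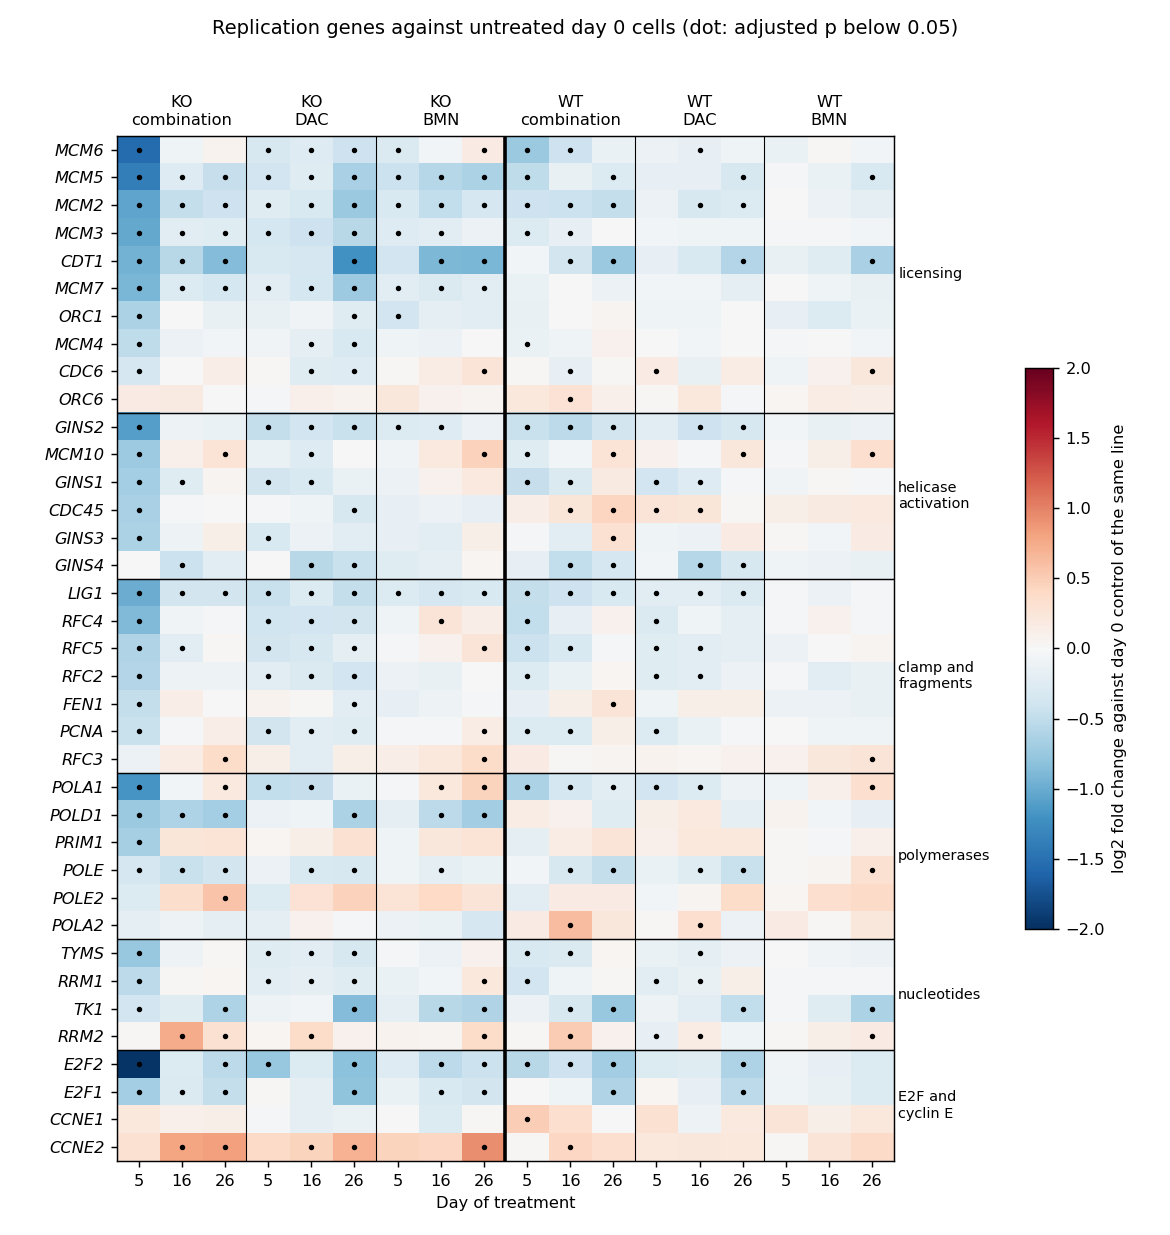
Log2 fold change of each of the 37 genes (rows, grouped by role) in the 18 treated groups (columns, KO left of WT, then the combination, DAC and BMN673 by day) against the day 0 control of the same line, with colour from -2 to 2 and a dot where the adjusted p was below 0.05. The column of KO cells given the combination for 5 days is the darkest and holds 29 dots, all for lower levels.

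Untreated KO cells held 5 genes above and 4 below the untreated WT cells. The genes above were CDC45, a part of the active helicase, MCM7, POLD1 (the catalytic subunit of polymerase delta), RRM2 and MCM4. Those below were CDC6, MCM10, E2F2 and TK1. CDC45 stood at 54.4 and 52.9 CPM in KO controls and 27.6 and 29.4 CPM in WT controls, a log2 difference of 0.91 ± 0.07 (adjusted p = 3.9e-12). CDC6, which loads the helicase, was at 72.8 and 72.7 CPM in KO controls, against 103 and 106 CPM in WT controls (log2 -0.53 ± 0.06). Neither pair overlapped. The median over the 37 genes was 0.09 on the log2 scale, against -0.01 over all genes tested. Over all genes tested, 13.4% were higher and 13.9% lower in KO, so the shares of the list, 5 and 4 of 37, were near or below that background. The TK1 libraries overlapped between the lines, and its difference (-0.35 ± 0.10) was -0.03 (adjusted p = 0.88) without WT control replicate 2 and did not pass without KO control replicate 1. The difference in POLD1 (0.38 ± 0.11) did not pass without WT control replicate 1 (0.22) or without KO control replicate 2 (0.32). That in E2F2 (-0.43 ± 0.12) did not pass without WT control replicate 2 (-0.15) or without KO control replicate 1 (-0.32).

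In KO cells given the combination for 5 days, 29 of the 37 genes fell and none rose. E2F2 (ENSG00000007968, GRCh38 chromosome 1, 23506438 to 23531233, minus strand), an activating E2F factor, was at 7.01 and 6.80 CPM in KO cells given the combination and at 24.9 and 29 CPM in KO controls. MCM6 (ENSG00000076003, chromosome 2, 135839626 to 135876443, minus strand), a helicase subunit, was at 55.6 and 56.7 CPM in treated cells and at 167 and 159 CPM in controls. MCM5 (ENSG00000100297, chromosome 22, 35400134 to 35425431, plus strand), another subunit, was at 70.0 and 73.8 CPM in treated cells and at 184 and 192 CPM in controls. The treated libraries lay far below the controls with no overlap in each case. The log2 fold changes were -1.96 ± 0.14 for E2F2 (adjusted p = 1.5e-13), -1.54 ± 0.06 for MCM6 (1.3e-20) and -1.38 ± 0.09 for MCM5 (2.7e-15). The median over the 37 genes was -0.63, against 0.08 over all genes tested, of which 22.2% fell and 27.1% rose. The libraries of the treated and control groups did not overlap for 34 of the 37 genes, and 73.5% of all genes tested did not overlap either. The summed level of the list was 2750 and 2800 CPM in treated cells, against 4310 and 4290 CPM in controls. Without any 1 of the 4 libraries, 28 to 29 genes fell.

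By role, 9 of the 10 licensing genes fell, with a median log2 fold change of -0.93. Besides MCM5 and MCM6 these were MCM2 (91.5 and 95.9 CPM in treated cells, 192 and 198 CPM in controls), MCM3 (105 and 102 CPM against 217 and 207 CPM), MCM7 (270 and 268 CPM against 515 and 501 CPM), MCM4 (329 and 330 CPM against 471 and 466 CPM), CDT1 (45.8 and 43.5 CPM against 78.9 and 92.1 CPM), CDC6 (56.6 and 58.3 CPM against 72.8 and 72.7 CPM) and ORC1. Their log2 fold changes ran from -1.06 ± 0.09 for MCM2 to -0.34 ± 0.06 for CDC6. The subunits of the MCM ring did not move by the same amount: MCM4 stood at -0.51 while MCM6 stood at -1.54. ORC6, which sits in the same complex as ORC1, did not pass (0.17, adjusted p = 0.2).

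Among the 6 genes of helicase activation 5 fell, with a median of -0.66. GINS2 was at 26 and 21.5 CPM in treated cells and 51.3 and 50.5 CPM in controls (-1.10 ± 0.09). MCM10, a factor of initiation, fell by 0.73 on the log2 scale, GINS1 by 0.68, CDC45 by 0.65 and GINS3 by 0.63. GINS4, the partner of these proteins in the GINS complex, was at 34.5 and 32.6 CPM in treated cells and 32.0 and 34.8 CPM in controls, with overlapping libraries (0.01, adjusted p = 0.96).

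At the fork, 6 of 7 genes of the clamp, its loader and Okazaki fragment processing fell, with a median of -0.59. The DNA ligase LIG1 was at 42.5 and 48.8 CPM in treated cells and 92.5 and 90.5 CPM in controls (-1.0 ± 0.09). The loader subunits RFC4, RFC5 and RFC2 had log2 fold changes of -0.88, -0.60 and -0.59, the flap endonuclease FEN1 had -0.48 and PCNA -0.45 ± 0.06. PCNA was at 101 and 106 CPM in treated cells and 145 and 138 CPM in controls, which did not overlap. RFC3 did not pass (-0.11, adjusted p = 0.36). Of the 6 polymerase and primase genes 4 fell, with a median of -0.51. POLA1 (ENSG00000101868, chromosome X, 24693873 to 24996986, plus strand), the catalytic subunit of the polymerase that starts each strand, was at 37.7 and 34.4 CPM in treated cells and 91.1 and 72.4 CPM in controls (-1.18 ± 0.08, adjusted p = 1.1e-13). POLD1 had a log2 fold change of -0.75 ± 0.11, the primase subunit PRIM1 -0.67 ± 0.14 and POLE, the catalytic subunit of polymerase epsilon, -0.34 ± 0.07. POLA2 (-0.20) and POLE2 (-0.27) did not pass.

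Of the 4 nucleotide supply genes 3 fell. TYMS was at 132 and 145 CPM in treated cells and 235 and 234 CPM in controls (-0.76 ± 0.06), and RRM1, the large subunit of ribonucleotide reductase, and TK1 fell by 0.52 and 0.38 on the log2 scale. TK1 did not pass in 1 of 4 fits with a library left out (adjusted p = 0.075). RRM2, the small subunit, was at 375 and 390 CPM in treated cells and 384 and 368 CPM in controls, which overlapped (0.03, adjusted p = 0.73). Of the G1/S regulators, E2F1 fell along with E2F2, to 74.4 and 74.0 CPM in treated cells against 116 and 121 CPM in controls (-0.68 ± 0.11, adjusted p = 3.3e-06). The cyclin E genes did not pass in either direction. CCNE1 was at 13.4 and 10.6 CPM in treated cells and 10.9 and 9.86 CPM in controls (0.21, adjusted p = 0.23), and CCNE2 at 22.9 and 24.1 CPM in treated cells and 17.6 and 20.7 CPM in controls (0.30 ± 0.16, adjusted p = 0.13).

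**Figure D2:**
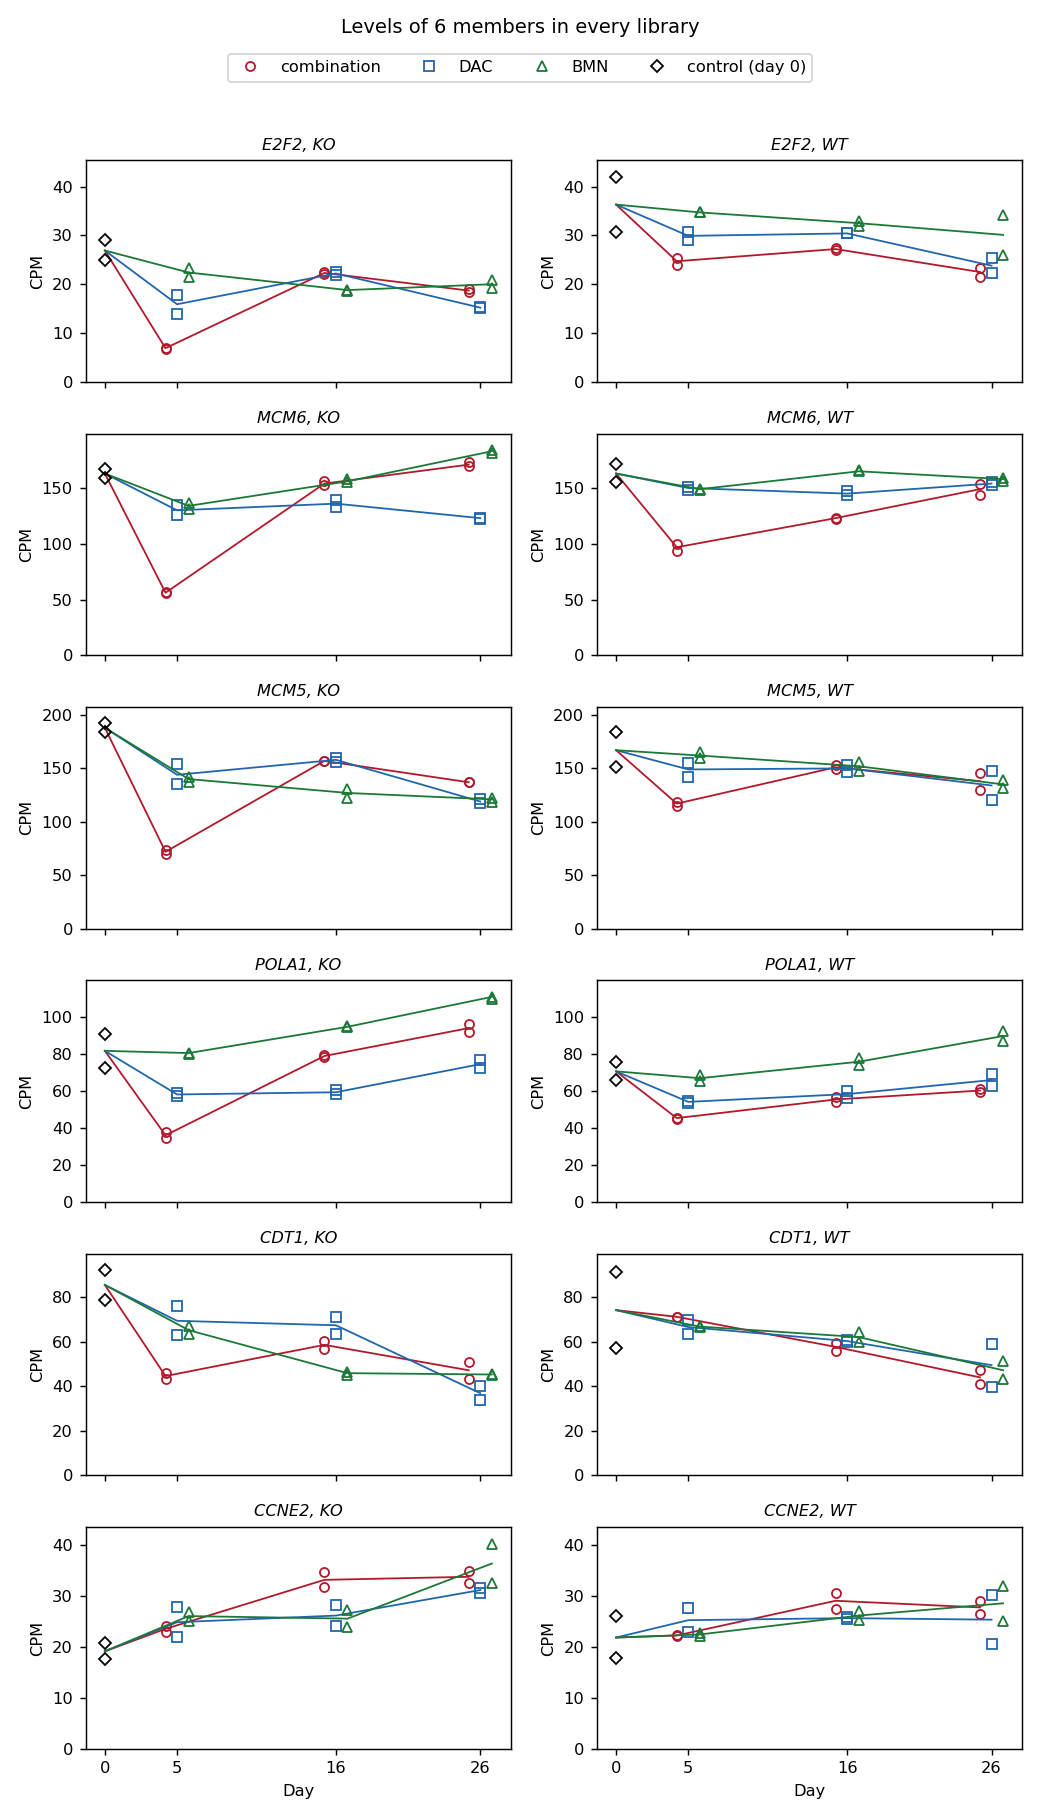
CPM of E2F2, MCM6, MCM5, POLA1, CDT1 and CCNE2 in each library against day, KO cells left and WT cells right, with lines through group means starting at the day 0 control (combination red circles, DAC blue squares, BMN673 green triangles, control black diamonds, points shifted sideways by treatment). In KO cells the red line of E2F2 is at 7.01 and 6.80 CPM on day 5, below every other library in its panel, and is back at 22.1 and 22.6 CPM on day 16.

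In WT cells the same 5 days of the combination brought 17 of the 37 genes down and CCNE1 up, with a median of -0.17 against 0.02 over all genes tested. Over all genes tested 18.2% fell and 21.2% rose. MCM6 was at 100 and 93.5 CPM in treated cells and 172 and 155 CPM in controls (-0.75 ± 0.06, adjusted p = 1e-12), and POLA1 at 45.7 and 45.1 CPM in treated cells and 75.6 and 65.9 CPM in controls (-0.64 ± 0.08, adjusted p = 9.8e-08). E2F2 was at 25.4 and 24.0 CPM in treated cells and 30.6 and 42.0 CPM in controls. The treated libraries were below the controls for all of these genes. The log2 fold change of E2F2, -0.55 ± 0.12, was -0.32 without WT control replicate 2, which did not pass (adjusted p = 0.06). All 17 genes that fell in WT cells are among the 29 that fell in KO cells. This overlap was not counted over all genes tested, so it has no background beside it. By role the 17 genes were 5 of the licensing genes, 5 of the clamp group, 3 of helicase activation, 2 of nucleotide supply, POLA1 and E2F2. CCNE1 was at 14.4 and 10.8 CPM in treated cells and 8.46 and 9.42 CPM in controls (0.49 ± 0.14, adjusted p = 0.0058). That rise did not pass without either of 2 libraries: without replicate 1 of the treated cells it was 0.24 (adjusted p = 0.3), and without WT control replicate 1 it was 0.37 (adjusted p = 0.11). With a library left out, 16 to 22 genes passed.

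The size of the fall differed between the lines at day 5, in contrasts that were chosen after the data had been seen. The response of KO cells minus that of WT cells passed for 22 of the 37 genes, all 22 with the lower value in KO, and the median difference was -0.38 against 0.02 over all genes tested. In that contrast 9.54% of all genes tested had the lower response in KO and 7.23% the higher. E2F2 had a log2 fold change of -1.96 ± 0.14 in KO and -0.55 ± 0.12 in WT, a difference of -1.41 ± 0.19 (adjusted p = 1.1e-06). POLD1 (-0.89 ± 0.15) and CDT1 (-0.88 ± 0.21) came next. CDT1, POLD1 and CDC45 fell in KO and did not pass in WT. The level of CDC45 was 34.3 and 34.0 CPM in KO cells given the combination and 54.4 and 52.9 CPM in KO controls, and it was 31.7 and 31.2 CPM in WT cells given the combination and 27.6 and 29.4 CPM in WT controls. Under the combination the lines were thus near each other in CDC45, and the untreated KO cells had the high level. Of the 37 genes, 34 had the lower log2 value in KO, the exceptions being CCNE2, GINS4 and RRM2. By role the difference passed for 9 of 10 licensing, 4 of 6 helicase activation, 3 of 7 clamp, 3 of 6 polymerase, 1 of 4 nucleotide supply and 2 of 4 G1/S genes. With a library left out, 19 to 23 genes passed. For CDT1 the difference was -0.58 without WT control replicate 1 (adjusted p = 0.047) and -1.30 without WT control replicate 2.

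**Figure D3:**
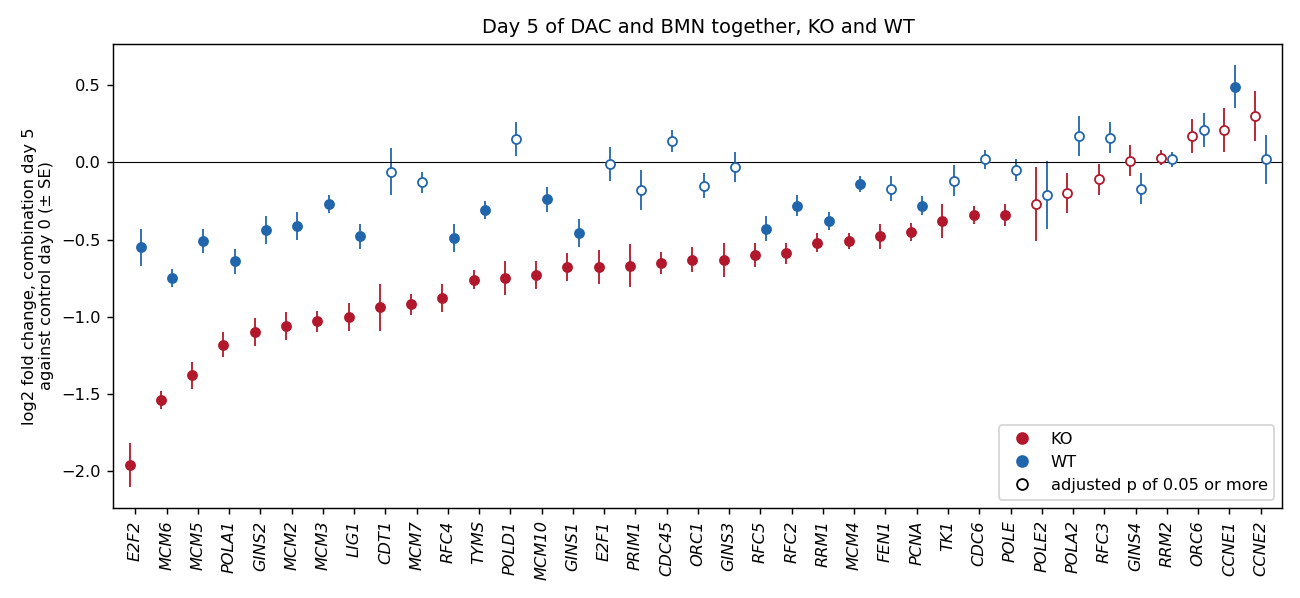
Log2 fold change ± SE of each of the 37 genes under the combination at day 5 against the day 0 control, KO in red and WT in blue, filled where the adjusted p was below 0.05 and open where it was not, ordered from left to right by the KO value. The KO value lies below the WT value for 34 of the 37 genes, and the KO values run from -1.96 in E2F2 to the open symbols of CCNE1 and CCNE2.

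Set beside the single drugs on the same day, the combination was lower for most of the list in KO cells. E2F2 was at 7.01 and 6.80 CPM with the combination, 17.8 and 13.9 CPM with DAC and 23.4 and 21.4 CPM with BMN673. MCM6 was at 55.6 and 56.7 CPM with the combination, 135 and 126 CPM with DAC and 131 and 137 CPM with BMN673. The combination stood below both single drugs with no overlap for both genes. Against DAC, 27 genes were lower in KO cells and none higher (median -0.48), where 11.8% of all genes tested were lower and 10.5% higher, and the largest differences were MCM6 (-1.22 ± 0.06), E2F2 (-1.20 ± 0.15) and MCM5 (-1.0 ± 0.09). Against BMN673, 29 genes were lower in KO cells and GINS4 was higher (0.26 ± 0.10, median of the list -0.54), where 17.8% of all genes tested were lower and 22.9% higher. The GINS4 rise did not pass with any 1 of the 4 libraries left out (adjusted p = 0.073 to 0.31). E2F2 (-1.70 ± 0.14), MCM6 (-1.25 ± 0.06) and POLA1 (-1.16 ± 0.08) differed most from BMN673.

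In WT cells at day 5, 8 genes were lower with the combination than with DAC and RRM2 was higher (0.19 ± 0.05), against 5.52% lower and 6.77% higher over all genes tested. MCM6 (-0.63 ± 0.06), MCM5 (-0.34 ± 0.08) and MCM10 (-0.32 ± 0.08) led the 8. RRM2, MCM5 and MCM10 each did not pass in 2 of 4 fits with a library left out. The total of 9 was 1 without replicate 1 of the DAC libraries, and 5 and 2 without replicates 1 and 2 of the combination libraries. Against BMN673, 15 genes were lower in WT cells and none higher, where 15.7% of all genes tested were lower and 19.8% higher, with MCM6 (-0.62 ± 0.06), POLA1 (-0.56 ± 0.08) and E2F2 (-0.49 ± 0.12) leading.

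The fall under the combination was also set against the sum of the log2 responses to the single drugs at day 5. In KO cells 16 of the 37 genes fell by more than that sum and none by less (median -0.35), where 3.68% of all genes tested were lower and 4.23% higher than the sum. E2F2 (-0.93 ± 0.19, adjusted p = 0.0014), MCM6 (-0.93 ± 0.08, adjusted p = 9.1e-10) and POLA1 (-0.67 ± 0.12) differed most, and 7 of the 16 were licensing genes. In WT cells MCM6 alone passed (-0.49 ± 0.08, adjusted p = 0.00015), where 0.901% of all genes tested were lower and 1.84% higher than the sum. The control libraries enter that sum more than once, and whether the non-additivity itself differed between the lines was not tested.

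At day 16 most of the list was back up in KO cells given the combination. Against day 5 of the same treatment 30 of the 37 genes were higher at day 16 and GINS4 was lower (-0.44), with a median of 0.54, where 16.8% of all genes tested were higher and 16.7% lower. At day 26 against day 5, 28 genes were higher and GINS4 was lower (-0.24 ± 0.10, adjusted p = 0.048), with a median of 0.56, where 21.6% of all genes tested were higher and 21.1% lower. The GINS4 fall at day 26 did not pass with any 1 of the 4 libraries left out (adjusted p = 0.062 to 0.18). MCM6 was at 55.6 and 56.7 CPM on day 5, 156 and 153 CPM on day 16 and 170 and 173 CPM on day 26. E2F2 was at 7.01 and 6.80 CPM on day 5, 22.1 and 22.6 CPM on day 16 and 19.0 and 18.4 CPM on day 26. Between day 5 and day 26 the log2 change was 1.61 ± 0.06 in MCM6, 1.44 ± 0.14 in E2F2 and 1.38 ± 0.08 in POLA1. Day 5 is common to both comparisons and to the fall itself, so these rises and that fall are not independent of each other. Of the 29 genes that had fallen at day 5, 24 were higher at day 26 than at day 5, and 11 were still below the control at day 26. The same counts were not taken over all genes tested that fell at day 5, so these have no background.

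The summed level of the list in KO cells on the combination was 2750 and 2800 CPM on day 5, 4080 and 4100 CPM on day 16 and 3970 and 3960 CPM on day 26, beside 4310 and 4290 CPM in the controls. In WT cells it was 3560 and 3380 CPM, then 3730 and 3720 CPM, then 3650 and 3840 CPM, beside 3850 and 4170 CPM in the controls. The day 5 libraries of KO cells were the lowest of all 40.

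**Figure D4:**
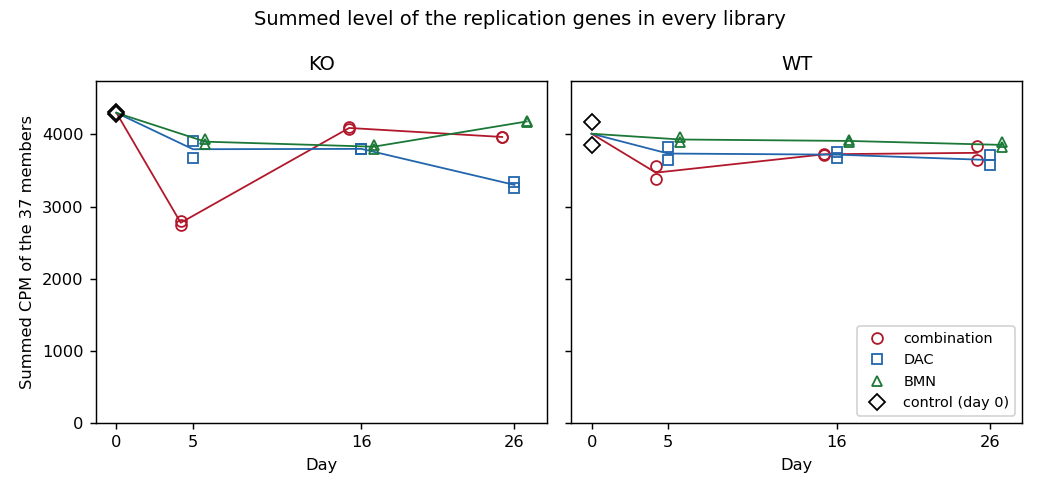
Summed CPM of the 37 genes in each library against day, KO cells left and WT cells right, with the same symbols and lines through group means as in the plot of single genes. The 2 libraries of KO cells given the combination for 5 days are at 2750 and 2800 CPM, below the next lowest pair, KO cells given DAC for 26 days at 3260 and 3340 CPM.

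Against the day 0 control, KO cells on the combination at day 16 had 12 genes lower and CCNE2 and RRM2 higher (median -0.10, against 0.09 over all genes tested, of which 19.5% fell and 23.1% rose). POLD1 (-0.61 ± 0.11), CDT1 (-0.55 ± 0.15) and MCM2 (-0.48 ± 0.09) fell most. RRM2 reached 627 and 629 CPM in treated cells, against 384 and 368 CPM in controls (0.74 ± 0.05, adjusted p = 1.3e-13), and CCNE2 31.7 and 34.6 CPM in treated cells, against 17.6 and 20.7 CPM in controls (0.79 ± 0.16). At day 26, 11 genes were lower and 6 higher (median -0.01 against 0.07 over all genes tested, of which 14.3% fell and 20.4% rose). CDT1 was lowest, at 43.4 and 51.0 CPM in treated cells and 78.9 and 92.1 CPM in controls (-0.86 ± 0.15, adjusted p = 2.8e-05), followed by POLD1 (-0.68 ± 0.11) and TK1 (-0.61 ± 0.11). CCNE2 (0.82 ± 0.16), POLE2 (0.57 ± 0.22) and RFC3 (0.37 ± 0.10) rose most. The POLE2 rise rests on few counts and did not pass with any 1 library left out (adjusted p = 0.11 to 0.23), and that of RFC3 did not pass without replicate 1 (adjusted p = 0.062) or replicate 2 (0.051) of the treated cells.

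In WT cells on the combination the count against control did not shrink with time in the same way. At day 16, 16 genes were lower and 5 higher (median -0.15 against 0.05 over all genes tested, of which 20.1% fell and 22.8% rose). GINS2 (-0.52), GINS4 (-0.50) and MCM2 (-0.43) fell most, and POLA2 (0.61 ± 0.13), RRM2 (0.51 ± 0.05) and CCNE2 (0.41 ± 0.16) rose most. With a library left out CCNE2 did not pass in 3 of 4 fits, and it was 0.14 (adjusted p = 0.56) without WT control replicate 2. RRM2 was at 449 and 462 CPM in treated cells and 321 and 319 CPM in controls, so it rose at day 16 in both lines. At day 26, 11 genes were lower and 4 higher (median 0.02 against 0.04 over all genes tested, of which 18.7% fell and 22.4% rose). TK1 was at 117 and 143 CPM in treated cells and 182 and 259 CPM in controls (-0.76 ± 0.11), CDT1 at 40.9 and 47.2 CPM in treated cells and 57.0 and 91.4 CPM in controls (-0.75 ± 0.15), and E2F2 had a log2 fold change of -0.69 ± 0.12. CDC45 (0.43 ± 0.07), GINS3 (0.30) and MCM10 (0.27) rose most. Without WT control replicate 2 the CDT1 value was -0.39 (adjusted p = 0.043). GINS3 did not pass in 3 of 4 fits with a library left out and was 0.15 (adjusted p = 0.36) without WT control replicate 1, and MCM10 did not pass in 2 of 4 and was 0.17 (adjusted p = 0.17) without WT control replicate 2. Against day 5 of the combination, 8 genes were higher and 3 lower in WT cells at day 16 (13.1% and 15% of all genes tested), led by RRM2 (0.48), POLA2 (0.44) and MCM5 (0.36) upwards and GINS4 (-0.33), POLE (-0.26) and CDC6 (-0.19) downwards. At day 26 against day 5, 18 were higher and 6 lower (18% and 17.9% of all genes tested), led by GINS1 (0.65), MCM6 (0.62) and RFC4 (0.58) upwards and CDT1 (-0.69), TK1 (-0.65) and E2F1 (-0.59) downwards. The day 16 count of 11 was 5 without replicate 2 of the day 16 libraries or of the day 5 libraries, and with a library left out POLA2 did not pass in 3 of 4 fits, GINS4 and CDC6 in 2 each and POLE in 1.

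DAC alone followed another course in KO cells, where the count of genes below control was 17 at day 5, 20 at day 16 and 25 at day 26. No gene was higher at day 5, CCNE2 and RRM2 were at day 16, and CCNE2 was at day 26. The medians of the list were -0.21, -0.23 and -0.30, against 0.04, 0.04 and 0.11 over all genes tested. The shares of all genes tested that fell were 16%, 17.8% and 20.9%, and the shares that rose were 19.5%, 19.9% and 26.3%. At day 5 the largest falls were E2F2 (-0.76 ± 0.13), POLA1 (-0.49 ± 0.08) and GINS2 (-0.48 ± 0.09). At day 16 they were GINS4 (-0.56 ± 0.10), POLA1 (-0.46 ± 0.08) and MCM3 (-0.42 ± 0.06), while CCNE2 (0.45 ± 0.16) and RRM2 (0.36 ± 0.05) rose. The POLA1 value ran from -0.67 to -0.32 at day 5 and from -0.65 to -0.29 at day 16 with a library left out, and passed in all 4 fits at each day. CCNE2 at day 16 did not pass in 2 of 4 such fits (adjusted p up to 0.25).

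At day 26 of DAC, CDT1 was at 33.8 and 40 CPM in KO treated cells and 78.9 and 92.1 CPM in KO controls (-1.21 ± 0.15, adjusted p = 4.7e-08). TK1 was at 93.8 and 95.5 CPM in treated cells and 159 and 188 CPM in controls (-0.87 ± 0.11), and E2F1 at 67.2 and 68.3 CPM in treated cells and 116 and 121 CPM in controls (-0.81 ± 0.11). The treated libraries lay below the controls with no overlap for these genes. E2F2 had a log2 fold change of -0.82 ± 0.13, and CCNE2 was the only riser, at 31.6 and 30.5 CPM in treated cells and 17.6 and 20.7 CPM in controls (0.70 ± 0.16, adjusted p = 0.00043). By role, 9 of 10 licensing genes and 6 of 7 clamp genes were below control at day 26, with medians of -0.48 and -0.25. Against day 5 of DAC, 14 genes were lower at day 26 in KO cells and 3 higher (17.8% and 18.1% of all genes tested, median -0.07). CDT1 (-0.91), E2F1 (-0.84) and TK1 (-0.77) fell most, 7 of the 14 were licensing genes, and POLE2 (0.74), POLA1 (0.36) and GINS1 (0.22) were the ones that rose. With a library left out POLE2 did not pass in 2 of 4 fits (as low as 0.40, adjusted p = 0.28) and GINS1 in 3 of 4 (as low as 0.08, adjusted p = 0.62).

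In WT cells DAC moved fewer of the genes. At days 5, 16 and 26 the numbers lower than control were 9, 12 and 10, and those higher were 2, 3 and 1. Over all genes tested 12.2%, 14.9% and 13.2% fell and 15.6%, 18.6% and 18.7% rose, and the medians of the list were -0.09, -0.13 and -0.09 against 0.02, 0.03 and 0.03. The largest falls were GINS1 (-0.39) and POLA1 (-0.38) at day 5, GINS4 (-0.57) and GINS2 (-0.41) at day 16, and E2F2 (-0.61 ± 0.12) and CDT1 (-0.58 ± 0.15) at day 26. The CDT1 libraries overlapped with the controls at day 26, at 39.9 and 59.1 CPM in treated cells and 57.0 and 91.4 CPM in controls. The fall of CDT1 was -0.24 (adjusted p = 0.29) without WT control replicate 2 and -0.37 (adjusted p = 0.098) without replicate 1 of DAC, and that of E2F2 ran from -0.89 to -0.40 and passed in all 4 fits. CDC45 rose at day 5 (0.25 ± 0.07) and day 16 (0.24), CDC6 at day 5 (0.17 ± 0.06), POLA2 (0.34) and RRM2 (0.15) at day 16, and MCM10 (0.22) at day 26. With any 1 of the 4 libraries left out, CDC6 (adjusted p = 0.078 to 0.36), POLA2 (0.059 to 0.43), RRM2 (0.15 to 0.27) and MCM10 (0.077 to 0.47) did not pass, and CDC45 did not pass in 2 of 4 fits at day 5 and 3 of 4 at day 16. The total of 11 genes at day 5 became 18 without WT control replicate 1, the 15 at day 16 became 8 without replicate 2 of DAC, and the 11 at day 26 became 4 without WT control replicate 2. Against day 5 of DAC, 8 genes were lower at day 26 in WT cells and 4 higher (9.14% and 12.6% of all genes tested, median 0.01), with E2F1 (-0.55), CDT1 (-0.43) and TK1 (-0.39) lowest and GINS1 (0.36), RRM1 (0.31) and POLA1 (0.28) highest. That total of 12 was 5 without replicate 1 of day 26, 4 without replicate 1 of day 5 and 6 without replicate 2 of day 5. CDT1 and POLA1 did not pass in 3 of 4 of these fits, and TK1 and GINS1 in 2 of 4.

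BMN673 alone gave no passing change in the list in WT cells at days 5 and 16. None of the 37 genes passed edgeR's test at either day, 2 had an unadjusted p below 0.05 at day 5 and 6 at day 16, and DESeq2's test called 0 and 2. Over all genes tested 0.04% fell and 0.146% rose at day 5, and 0.426% fell and 0.257% rose at day 16, and the medians of the list were -0.03 and -0.02. Without WT control replicate 1 the count at day 16 was 11. At day 26, 6 genes were higher and 3 lower, beside 12% higher and 11% lower over all genes tested. MCM10 (0.34), POLA1 (0.34) and POLE (0.30) rose most, and CDT1 (-0.65 ± 0.15), TK1 (-0.64 ± 0.11) and MCM5 (-0.31) were the ones that fell. Without WT control replicate 2, CDT1 was -0.32 (adjusted p = 0.2), MCM5 -0.21 (adjusted p = 0.19), MCM10 0.21 (adjusted p = 0.17) and POLA1 0.20 (adjusted p = 0.18), none of which passed, while POLE was 0.14 (adjusted p = 0.22) without WT control replicate 1. TK1 passed in all 4 fits with a library left out, at -0.96 to -0.41. That total of 9 moved to 18 and 2 without WT control replicates 1 and 2 in turn, and to 3 and 14 without replicates 1 and 2 of BMN673. Against day 5 of BMN673, WT cells at day 26 had 4 genes higher (POLA1 0.42, MCM10 0.38, CDC6 0.31 and POLE 0.28) and 3 lower (TK1 -0.62, CDT1 -0.50 and MCM5 -0.26), beside 11.7% and 10.3% of all genes tested. The total of 7 was 3 without replicate 1 of day 26 or of day 5, and 12 without replicate 2 of day 26. POLE did not pass with any 1 of the 4 libraries left out (adjusted p = 0.06 to 0.19), CDC6 and MCM5 did not pass in 2 of 4 fits, and MCM10 and CDT1 in 1.

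In KO cells BMN673 lowered 8 genes at day 5 and raised none (median -0.12, with 6.65% of all genes tested lower and 5.07% higher). These were 6 licensing genes, GINS2 and LIG1, led by MCM5 (-0.43 ± 0.08), ORC1 (-0.38 ± 0.08) and MCM2 (-0.31 ± 0.09). The count was 2 without KO control replicate 1, 4 without KO control replicate 2, and 3 and 4 without replicates 1 and 2 of BMN673. MCM2 (adjusted p = 0.068 to 0.21), GINS2 (0.078 to 0.29) and LIG1 (0.073 to 0.15) did not pass in any of these 4 fits, and ORC1 did not pass in 1. At day 16, 12 genes were lower and 2 higher (median -0.12, with 15.2% of all genes tested lower and 10.3% higher). CDT1 (-0.90 ± 0.15), MCM5 (-0.57) and TK1 (-0.56) fell most, and RFC4 (0.25) and POLA1 (0.21) rose. RFC4 did not pass with any 1 of the 4 libraries left out (adjusted p = 0.056 to 0.25), and POLA1 did not pass in 3 of 4 fits and was 0.01 (adjusted p = 0.99) without KO control replicate 2. The total of 14 was 8 without replicate 2 of BMN673.

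At day 26 of BMN673 the KO list split, with 10 genes higher and 9 lower (median 0.03, with 15.6% of all genes tested higher and 17.5% lower). CCNE2 was at 40.2 and 32.4 CPM in treated cells and 17.6 and 20.7 CPM in controls (0.93 ± 0.16, adjusted p = 2.1e-05). POLA1 was at 111 and 110 CPM in treated cells and 91.1 and 72.4 CPM in controls (0.44 ± 0.08), and MCM10 at 61.0 and 65.2 CPM in treated cells and 51.3 and 40.8 CPM in controls (0.46 ± 0.08). CDT1 was at 45.0 and 45.6 CPM in treated cells and 78.9 and 92.1 CPM in controls (-0.92 ± 0.15), POLD1 at 48.6 and 52.9 CPM in treated cells and 78.1 and 85.9 CPM in controls (-0.69), and MCM5 had a log2 fold change of -0.64. Both directions occurred within the MCM ring, since MCM6 rose (0.16) while MCM5 fell, but MCM6 did not pass in 3 of 4 fits with a library left out (adjusted p up to 0.46). In the same 4 fits POLA1 ran from 0.23 to 0.61 and MCM10 from 0.25 to 0.63, passing each time. The total of 19 was 11 without replicate 1 of BMN673. Against day 5 of BMN673, 12 genes were higher at day 26 in KO cells and 3 lower (8.95% and 9.38% of all genes tested, median 0.14), with MCM10 (0.52), CCNE2 (0.49) and POLA1 (0.46) up and CDT1 (-0.52), POLD1 (-0.50) and TK1 (-0.41) down. That total of 15 was 6 without replicate 1 of day 26 and 7 without replicate 1 of day 5. CCNE2 and CDT1 did not pass in 3 of 4 of these fits, and TK1 in 1.

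The treatments share days, so they were also compared with each other over the 3 days averaged. The combination minus DAC passed for 8 lower and 3 higher genes in KO cells, where 11.8% of all genes tested were lower and 10.9% higher. POLD1 (-0.40 ± 0.06), E2F2 (-0.30) and MCM5 (-0.27) were lowest, and CCNE1 (0.26), RRM2 (0.19) and PCNA (0.17) were the higher ones. CCNE1 did not pass in 7 of 12 fits with a library left out (adjusted p up to 0.17). In WT cells 5 were lower and 2 higher (12.8% and 10.2% of all genes tested), with MCM6 (-0.30 ± 0.03), MCM2 (-0.20) and LIG1 (-0.16) lowest and POLA2 (0.26) and RRM2 (0.24) higher. That total of 7 was 4 without replicate 1 of the combination at day 16, of the combination at day 26 or of DAC at day 5, and LIG1 did not pass in 6 of 12 fits, MCM2 in 3 and POLA2 in 1. The average covers days that differ: the summed level of the list in KO cells was 2750 and 2800 CPM with the combination and 3910 and 3680 CPM with DAC at day 5. At day 26 it was 3970 and 3960 CPM with the combination and 3260 and 3340 CPM with DAC. The combination was thus below DAC at day 5 and above it at day 26, with no overlap on either day.

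The combination minus BMN673 passed for 23 lower and 2 higher genes in KO cells (19.2% and 26% of all genes tested) and for 18 lower and 5 higher in WT cells (25.3% and 27%). POLA1 was lowest in both lines, at -0.55 ± 0.05 in KO and -0.53 ± 0.05 in WT, followed by E2F2 (-0.51) and MCM6 (-0.45) in KO and POLE (-0.40) and E2F2 (-0.39) in WT. CCNE1 (0.22) and RRM2 (0.20) were the higher ones in KO, and FEN1 (0.19), POLA2 (0.19) and ORC1 (0.17) the leading ones in WT. CCNE1 did not pass in 8 of 12 fits with a library left out and POLA2 in 9 of 12. DAC minus BMN673 passed for 19 lower and 2 higher genes in KO cells (23% and 28.5% of all genes tested) and for 13 lower and 2 higher in WT cells (19.4% and 23.3%). POLA1 (-0.57 ± 0.05), RFC4 (-0.48) and RFC5 (-0.39) were lowest in KO, where POLD1 (0.20) and MCM5 (0.12) were higher. POLE (-0.40), POLA1 (-0.37) and E2F2 (-0.21) were lowest in WT, where FEN1 (0.17) and ORC1 (0.14) were higher. Refitted without each library, MCM5 did not pass in 11 of 12 fits in KO and POLD1 in 3, and ORC1 did not pass in 5 of 12 in WT and E2F2 in 1. Over the 3 days POLA1 was at 57.3 to 76.6 CPM with DAC and 80.2 to 111 CPM with BMN673 in KO libraries, which did not overlap. In WT libraries it was at 53.8 to 69.4 CPM with DAC and 65.5 to 92.5 CPM with BMN673, which overlapped.

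The difference between the lines in their response, averaged over the 3 days, passed for fewer genes than at day 5. Under the combination 7 genes had the lower response in KO and none the higher (6.95% and 7.25% of all genes tested, median -0.13), namely POLD1 (-0.67 ± 0.12), CDC45 (-0.50 ± 0.08), POLA2, MCM7, MCM5, MCM3 and MCM4. That count was 4 without WT control replicate 1 and 15 without WT control replicate 2, and POLA2 and MCM4 each did not pass in 3 of 16 fits and MCM5 in 1. Under DAC 4 were lower in KO (MCM3, MCM7, CDC45 and MCM6, -0.37 to -0.21) and RRM2 was higher (0.20 ± 0.06), beside 5.17% and 3.66% of all genes tested. That total of 5 was 2 without WT control replicate 1 or KO control replicate 1, 3 without replicate 2 of DAC at day 5 in KO, 8 without replicate 1 of DAC at day 26 in WT and 12 without WT control replicate 2. MCM6 did not pass in 9 of these 16 fits, RRM2 in 6, CDC45 in 2 and MCM7 in 1. Under BMN673 MCM5 alone was lower in KO (-0.38 ± 0.10, adjusted p = 0.034), beside 1.1% lower and 0.124% higher over all genes tested. No gene passed in 14 of the 16 fits with 1 library left out, and 11 passed without WT control replicate 2.

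Counted over the 18 comparisons with control, which share the controls of each line, some genes went down in most. No such tally was made over all genes tested, so these counts have no background beside them. They include calls that did not pass with a library left out. LIG1 passed as lower in 15, MCM2 in 14, MCM5 in 13 and GINS2 in 11, and none of these ever passed as higher. CDT1, E2F2, MCM3 and POLE passed as lower in 10 each. RRM2 passed as higher in 7 and lower in 1, CCNE2 as higher in 6 and RFC3 in 3, neither ever lower. POLA2 passed as higher in 2 and CCNE1, ORC6 and POLE2 in 1 each, and none of these ever passed as lower. MCM10 (5 higher, 3 lower), CDC45 (4 and 2) and POLA1 (4 and 8) went both ways.

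Other cell cycle lists, none of whose genes are among the 37, had smaller median changes at day 5 of the combination in KO cells. Of 51 other replication and S-phase genes 32 fell and 4 rose (median -0.32), led by SHMT1 (-1.54 ± 0.09), which serves thymidylate synthesis, with POLE4 (1.03 ± 0.19) and ORC5 (0.42 ± 0.18) up. Of 26 mitosis genes 16 fell and 2 were up (median -0.33), led by the kinase AURKB (-1.0 ± 0.09) and TPX2 (-0.67 ± 0.06) downwards and the kinesin CENPE (1.03 ± 0.20) and HMMR (0.40 ± 0.17) upwards. Of 18 replication stress checkpoint genes 11 fell and the kinase ATR rose (0.78 ± 0.12), with a median of -0.36, ZRANB3 (-1.38 ± 0.12) and MDC1 (-0.81 ± 0.08) leading the falls. The proliferation marker MKI67 did not pass (-0.20, adjusted p = 0.13), at 1340 and 1340 CPM in treated cells and 1840 and 1240 CPM in controls, the treated values lying inside the range of the controls. In WT cells the medians were -0.14, -0.21 and -0.16 for these 3 lists, with 17 of 51, 13 of 26 and 6 of 18 genes lower and 5, 0 and 0 higher.

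Of 21 tested E2F, RB and CDK inhibitor genes, 10 fell and 4 rose in KO cells at day 5 of the combination. CDKN1A, the p21 inhibitor of cyclin-dependent kinases, was at 428 and 461 CPM in KO treated cells and 116 and 124 CPM in KO controls (1.89 ± 0.09, adjusted p = 5.6e-19). In WT it was at 276 and 309 CPM in treated cells and 77.5 and 92.2 CPM in controls (1.79 ± 0.09). The CDKN1A libraries did not overlap in either line, and the responses of the lines differed by 0.11 ± 0.12 (adjusted p = 0.62). With DAC at day 5 CDKN1A was at 138 and 126 CPM and with BMN673 at 169 and 175 CPM in KO cells, far below the combination, and on the combination it was at 140 and 145 CPM at day 16 and 156 and 162 CPM at day 26. The part of CDKN1A in the fall of the list was not tested. CDKN1B (p27) went down in KO (-0.97 ± 0.09) and WT (-0.80 ± 0.09), as did the INK4 inhibitor CDKN2C (-1.78 ± 0.09 in KO) and E2F8, a repressor E2F (-1.32 ± 0.12 in KO). MYBL2, an E2F target and partner of mitotic transcription, fell in KO (-0.83 ± 0.08) and not in WT (-0.15, adjusted p = 0.13), and its responses differed by -0.68 ± 0.11. CCNA2 (-0.58 in KO, -0.43 in WT), DTL (-0.44 in KO) and the RB relative RBL1 (-0.45 in KO, -0.28 in WT) fell, while RB1 did not pass in KO (0.12, adjusted p = 0.47) and fell in WT (-0.39).

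At day 26 of the combination in KO cells the other lists had moved up against day 5, with 32 of 51 other replication, 18 of 26 mitosis and 13 of 18 checkpoint genes higher, and medians of 0.43, 0.32 and 0.47. Against control at that day their medians were 0.13, 0.12 and 0.17, above the -0.01 of the 37 genes. The medians describe these lists, and no test set one list against another.

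**Figure D5:**
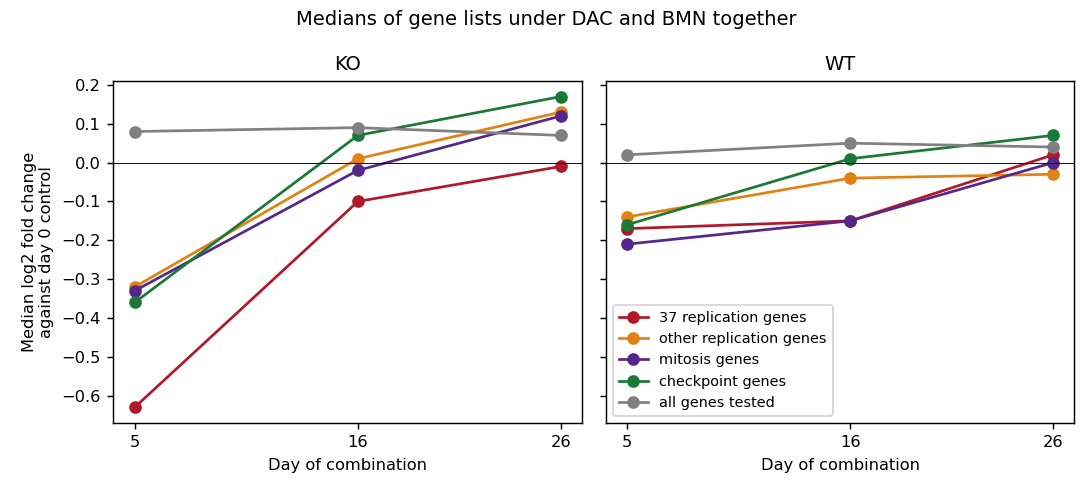
Median log2 fold change against the day 0 control under the combination at days 5, 16 and 26 for the 37 genes, other replication and S-phase genes, mitosis genes, replication stress checkpoint genes and all genes tested, KO cells left and WT cells right. In KO cells the 37 genes start lowest, at -0.63 on day 5, and end at -0.01 on day 26, while the median of all genes stays between 0.07 and 0.09.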

How the data were processed

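Per the labels, the 40 libraries were made from 1 ug of total RNA with the KAPA RNA HyperPrep kit. The deposited table holds raw counts per gene, not normalized by the authors. Per the file headers, featureCounts 1.5.0-p1 counted them on GRCh38 against Ensembl 104, using strand setting 1, a minimum mapping quality of 20 and no reads marked as duplicates, and the header names 76 alignments, of which 40 are columns of the table. The submitters' processing notes also name FastQC, Trimmomatic and Partek, and the names of the alignments in the header name STAR. This kit is usually counted with the opposite strand setting. Of 894 genes with an annotated antisense partner and a mean of more than 10 CPM in the pair, 863 stood above that partner (VIM at 4050 against 28.4), so the deposited counts lie mostly on the annotated strand. Each column was matched to its sample by the labels. No row lacked a gene.

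Gene symbols came from a reference table of identifiers and names. The filter was filterByExpr with a minimum count of 10 and a minimum total of 15. TMM scaling was used, and 1 quasi-likelihood fit in edgeR 4.0.16 (R 4.3.3) took in every library with a mean per group (residual df 20, prior df 12.37, common dispersion 0.005152). The Benjamini-Hochberg adjustment ran over the 22527 genes of each contrast, and 34 contrasts were planned while 9 were added after the data had been seen (day 5 alone for the combination against each drug, for the difference between lines and for non-additivity, and day 16 against day 5). CPM use the TMM library sizes. Library totals ran from 17833960 to 22631101 counts. Depth is only part of the precision, since the spread between libraries enters the fit too, and intervals on counts would cover counting error only. Simulated counts were built on the KO control, DAC and BMN673 libraries alone (20268 genes), with the same dispersion for every gene. Changes were put into DAC at day 26, in far fewer genes than passed in the real comparison. A fit of those libraries recovered 14 of 50 genes with a 1.3-fold change, 44 of 50 at 1.5-fold and 50 of 50 at 2-fold. It made 6 false calls. Small changes in single genes were often missed in that setting, and the fit of all 40 libraries was not simulated.

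The members, their roles and the comparison lists were chosen with earlier results of these data known, so counts over them are descriptions. All 37 genes could be named, the 3 largest rises and falls of a contrast first, with up to 2 rises and 2 falls of each other list and 10 named regulators. One gene that this rule picks from another list is not reported here. CDKN2A did not pass the filter, and CCND2, with controls near 0, is not described. Replicate numbers were checked for pairing: over 190 pairs of groups the correlation of same-numbered deviations ran from -0.17 to 0.24 with a median of 0, and 10 were over 0.1, so they were not treated as pairs. Alternatives were DESeq2 1.42.0 (size factors and test), no filter on low counts, a replicate block, a covariate for a suffix in the alignment names of 17 libraries, only the libraries of a contrast, single days, and each library left out, with a shorter grid for the dispersion. Sequences came from RefSeq promoter windows on GRCh38.p14.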

Additional observations from a re-analysis of the deposited data

Results flagged for a closer look

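A difference between the KO and WT lines in their response to the same treatment passed edgeR's quasi-likelihood test of that difference (Benjamini-Hochberg adjusted p below 0.05) for the genes below, each given as the log2 response of KO minus that of WT. Lower values mean a deeper fall, or a smaller rise, in KO. The WT response rests on controls that stood apart from each other, as given in the report.

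Under the combination at day 5, 22 genes passed. Among licensing genes the differences were -0.88 for CDT1, -0.87 for MCM5, -0.79 for MCM6, -0.79 for MCM7, -0.77 for MCM3, -0.64 for MCM2, -0.48 for ORC1, -0.36 for MCM4 and -0.36 for CDC6. Among genes of helicase activation they were -0.79 for CDC45, -0.65 for GINS2, -0.60 for GINS3 and -0.50 for MCM10. At the fork they were -0.52 for LIG1, -0.38 for RFC4 and -0.31 for RFC2. Among polymerases they were -0.89 for POLD1, -0.54 for POLA1 and -0.28 for POLE. TYMS differed by -0.46, E2F1 by -0.67 and E2F2 by -1.41.

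With the 3 days averaged, the combination gave differences of -0.67 for POLD1, -0.50 for CDC45, -0.50 for POLA2, -0.43 for MCM7, -0.39 for MCM5, -0.36 for MCM3 and -0.18 for MCM4. POLA2 was not among the genes that passed at day 5. DAC averaged over days gave -0.37 for MCM3, -0.33 for MCM7, -0.32 for CDC45 and -0.21 for MCM6, and 0.20 for RRM2, the member with the higher response in KO. BMN673 averaged over days gave -0.38 for MCM5.

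Some of these calls were lost with 1 library left out. At day 5 POLE did not pass in 6 of 8 fits, RFC2 and RFC4 in 4 and MCM10 in 1. Averaged over days, MCM5 under BMN673 did not pass in 14 of 16 fits. Under DAC MCM6 did not pass in 9 of 16, RRM2 in 6, CDC45 in 2 and MCM7 in 1, and under the combination POLA2 and MCM4 did not pass in 3 and MCM5 in 1.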

How the results depend on the processing

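Counts of members that passed were within 1.5 times of the reported count in 242 of 273 results under other settings. Single members were checked only for up to 3 of the largest passing rises and falls of each contrast. None of these reversed its direction. With only the libraries of the contrast, and so a spread estimated from few libraries, the counts were 4 for KO against WT at day 0, 0, 2 and 0 for DAC in WT at days 5, 16 and 26, 0 for BMN673 in WT at day 26, and 11, 7 and 7 for the combination in WT at days 5, 16 and 26. They were 1 for the difference between lines under DAC, 0 under BMN673, 1 for DAC at day 26 against day 5 in WT and 0 for non-additivity in WT. Without the filter on low counts they were 5 and 9 for DAC in WT at days 5 and 16, 1 for BMN673 in WT at day 16, 3 for the difference between lines under DAC, 3 under BMN673, and 4 for the combination against DAC in WT at day 5. The median over all genes for DAC in KO at day 26 was then 0.0, a shift of -0.11. That median is over a larger set of genes, since every gene with any count was then kept, so it is not like for like. DESeq2's test gave 2 for BMN673 in WT at day 16 and 2 for the difference between lines under BMN673, its size factors gave 0 for that difference, and the alignment suffix gave 2. On single days the combination against DAC in WT gave 3 at day 16 and 3 at day 26, and in KO 27 at day 5 and 21 at day 26, all 27 lower and all 21 higher. The combination against BMN673 gave 15 at day 5 in WT, and 10 at day 16 and 3 at day 26 in KO. The difference between lines under the combination gave 22 at day 5 and 3 at day 26. For days 16 and 26 of these contrasts no shares over all genes tested were taken, so those counts have no background beside them. Those day 16 and day 26 contrasts served only as settings of the averages and are not among the 9 added. Except where the setting's own construction shows it, the cause was not tested.

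With 1 library left out, counts ran from 8 to 18, 8 to 18 and 4 to 15 for DAC in WT at days 5, 16 and 26, and from 0 to 11 and 2 to 18 for BMN673 in WT at days 16 and 26. For BMN673 in KO they ran from 2 to 4, 8 to 14 and 11 to 19 at days 5, 16 and 26. For the differences between lines they ran from 2 to 12 under DAC, 0 to 11 under BMN673 and 4 to 15 under the combination. They ran from 4 to 7 for the combination against DAC in WT over days and 1 to 7 at day 5, 1 to 2 for non-additivity in WT, and 5 to 11 for day 16 against day 5 of the combination in WT. For day 26 against day 5 they ran from 4 to 15 for DAC in WT, 3 to 12 for BMN673 in WT and 6 to 10 for BMN673 in KO. The counts for the combination in KO at day 5 ran from 28 to 29.

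A fit with the replicate number as a block gave 29 for the combination in KO at day 5 and 22 for the difference between lines at day 5, and no count of members moved by more than 1.5 times under the block. Under the block the fall of GINS4 at day 26 against day 5 of the combination in KO no longer passed (-0.24, adjusted p = 0.05). The correlation of same-numbered deviations was over 0.1 in 10 of 190 pairs of groups, and the numbers were not treated as pairs. Of 1128 results for the largest passing rises and falls of each contrast, 67 no longer passed under other settings. With a library left out, 200 of 1132 such results no longer passed. For the genes near 5 to 15 CPM (POLE2, CCNE1, POLA2, PRIM1), 2 libraries give an SE above 0.1 on the log2 scale. Such an SE was not particular to them. In comparisons with control it also occurred for CCNE2, CDT1, E2F1 and TK1, with median group means of 25.8, 59.5, 96.4 and 160 CPM.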
